A study of Mus musculus with 2 samples.

Results

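The sterol genes of mouse Lewis lung carcinoma (LLC) cells were compared between a PDLIM2-knockdown line and its control line. The set holds 36 genes chosen by symbol for their place in cholesterol synthesis, in its control by SREBP (sterol regulatory element-binding protein) or in sterol transport and efflux. Of these, 30 had a probe set in the platform annotation, out of 19505 genes in all, and each of the 30 was read by a single probe set. Acat2, Tm7sf2, Srebf1, Mbtps2, Soat1 and Nr1h2 were not analysed here. LLC is a carcinoma line from C57BL/6 mice. The knockdown line (shPDLIM2) carried a stably expressed shRNA against PDLIM2, 1 shRNA sequence chosen for the LLC line in the study, and the control line (shEmpty) was infected with virus containing the shEmpty shRNA. The labels describe viral infection with polybrene and stable selection in puromycin, and no further treatment, time or dose separates the lines. Each line gave 1 RNA sample, read on a Clariom S mouse array from Affymetrix.

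With 1 array per line there are no replicates, so p-values and errors between cultures are lacking, and knockdown, cell line, culture and array cannot be told apart. In bulk RNA, a lower signal from fewer cells of a kind and from less RNA per cell cannot be told apart either. Every value is a deposited log2 signal after RMA, a method that summarizes the probes of a set, and every difference is shPDLIM2 minus shEmpty. A difference of -1 on the log2 scale is therefore 2-fold lower in the knockdown. A signal was called above background where it exceeded the 95th percentile of 1448 odorant, vomeronasal and taste receptor genes on the same array, which was 5.12 for shEmpty and 5.26 for shPDLIM2. For these receptor genes, the central 95% of differences spanned -0.79 to 1.01 around a median of 0.08, so its lower edge lies nearer 0. That range describes genes of low signal and was not measured for brighter genes. Where a gene had 2 probe sets (48 genes), the pair shared a direction in 72.9%, and the standard deviation of 1 probe set's difference was 0.35. Pdlim2 itself read 10.04 (shEmpty) and 8.33 (shPDLIM2) as log2 signals, or 3.27-fold lower in the line labelled as knockdown. Where its probes lie relative to the shRNA target was not analysed here.

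The cell type labels were read against marker genes. The epithelial keratins Krt8 and Krt18 were above background on both arrays, whereas Epcam and Cdh1, also epithelial markers, were not above background on either. Krt19, a further keratin, was above background in shEmpty cells alone (5.82 and 4.67). All 3 keratins were lower in the knockdown, and the summed signal of the 5 epithelial markers was 12.27 on the log2 scale in shEmpty and 11.38 in shPDLIM2 cells. Krt18 alone read 12.20 and 11.29, so that sum is mostly 1 gene. The mesenchymal markers Vim, Fn1 and S100a4 were above background on both arrays, with a summed log2 signal of 19.65 in shEmpty and 19.55 in shPDLIM2 cells. Vim alone read 19.56 and 19.46. Of these mesenchymal markers, Vim differed by -0.10, Fn1 by 0.11 and S100a4 by -1.14 on the log2 scale. Of 12 measured markers of macrophages, lymphocytes, endothelium and fibroblasts, 7 were above background on neither array, 1 (Cd14) on both and 4 on the shPDLIM2 array alone. Those 4 were Adgre1, Cd4, Pecam1 and Dcn, with shPDLIM2 signals of 5.76, 5.38, 5.33 and 5.82, near the level of 5.26. Set against the shEmpty background level of 5.12, they were at least 1.56, 1.2, 1.16 and 1.62-fold higher. Pecam1 read 3.55 in shEmpty cells, a difference of 1.78. For comparison, 10779 of 19505 genes passed on 1 or 2 arrays and 9509 on both. The summed log2 signals of the 12 markers, per cell type, ranged from 5.50 to 7.46 in shEmpty and from 5.88 to 7.70 in shPDLIM2 cells. Ptprc, the pan-leukocyte antigen, was above background on neither. The part of these differences in the sterol values was not tested.

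Cholesterol is built from acetyl-CoA through mevalonate, isoprenoid diphosphates, squalene and lanosterol. When sterols are scarce in the endoplasmic reticulum, Scap carries SREBP to the Golgi, where the proteases Mbtps1 and Mbtps2 release its transcription factor domain, and Insig proteins hold Scap back when sterols are plentiful. SREBP-2 drives most genes of the synthesis pathway, together with the factor NF-Y, which binds CCAAT boxes. Oxysterols activate the liver X receptors (LXR), which raise efflux of cholesterol through Abca1 and Abcg1.

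Of the 30 measured genes, 19 were lower in shPDLIM2 LLC cells and 11 were higher. Lower genes thus made up 63.3% of the set, beside 49.0% of all 19505 genes lower and 50.0% higher. The median log2 difference of the set was -0.30, and that of all genes was 0.01. Above background on at least 1 array were 27 of the 30, of which 19 were lower and 8 higher, or 70.4% lower. Among the 10779 genes above background, 54.9% were lower and 44.3% higher. Their median was -0.06, beside -0.51 for the sterol genes. Dhcr7 passed this filter through the shEmpty array alone, and over the 26 genes above background on both arrays the median was -0.45.

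Fdft1, Srebf2 and Fdps were at least 2-fold lower, and none of the 30 was at least 2-fold higher. Over all genes above background, 3.27% were at least 2-fold lower and 2.10% at least 2-fold higher. At 1.5-fold, 11 of the sterol genes were lower and 2, Sqle and Stard4, were higher, whereas 14.5% and 9.80% of the genes above background passed that fold. Only Fdft1, Srebf2, Fdps, Pmvk, Scap and Msmo1 lay below the central 95% of the receptor genes, none lay above it, and 24 lay within it. Of all genes above background, 7.12% lay below that range and 1.92% above it. Fdft1 was the 48th lowest and Srebf2 the 81st lowest of the 10779 genes above background.

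**Figure D1:**
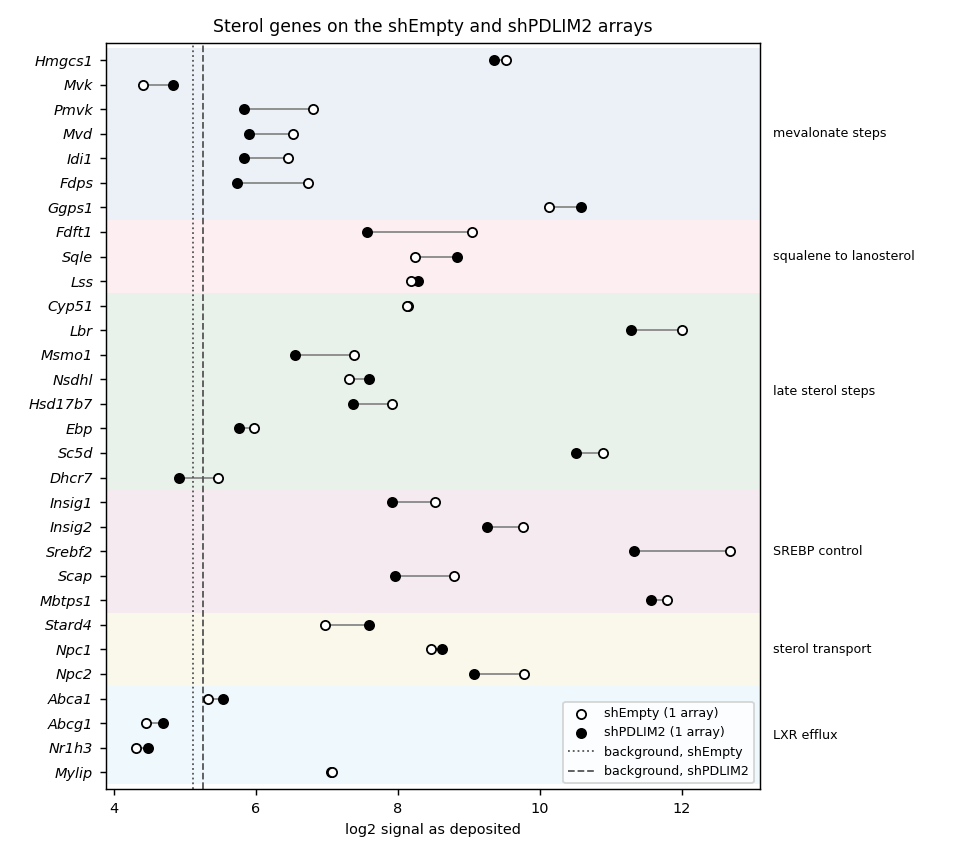
Log2 signals of the 30 measured sterol genes in pathway order, with open points for the shEmpty array, filled points for the shPDLIM2 array and vertical lines at the background level of each array (5.12 and 5.26). The filled point lies left of the open one in 19 genes, with the widest gaps at Fdft1 and Srebf2, and Mvk, Abcg1 and Nr1h3 lie below background on both arrays.

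The promoters were searched because SREBP-2 and NF-Y act there. The RefSeq table of mouse promoters (GRCm38.p6, 250 bases before to 50 after each start site) held 30 of the 36 genes. It held no entry for Fdps, Fdft1, Sqle, Stard4, Npc1 and Abcg1. A sterol regulatory element, spelled here TCACNCCAC and searched on both strands, was found in 1 of the 30, Hmgcs1, and in 1.44% of 27025 genes. The NF-Y box CCAAT, also on both strands, was found in 23 of the 30 (76.7%) and in 41.1% of all genes. As spelled, an SRE and an NF-Y box can overlap by at most 1 base.

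Among the 22 sterol genes above background with a promoter entry, 19 had an NF-Y box (86.4%), beside 43.6% of the 8807 genes above background with an entry. Of those 19, 15 were lower and 4 higher, or 78.9% lower, with a median log2 difference of -0.55. The 15 include Dhcr7 at -0.55, which was above background on the shEmpty array alone and had a bound of -0.21. Of the 3837 genes above background with a box, 55.8% were lower, and their median was -0.08. The 3 sterol genes without a box were Scap, Mbtps1 and Abca1, of which Abca1 alone was higher, and their median was -0.22. Of the 4970 genes above background without a box, 54.5% were lower, and their median was -0.06. Of all 27 sterol genes above background, with or without a promoter entry, 70.4% were lower. A link between the box and the difference was not tested. Mvk, with a box, and Nr1h3, without one, were left out because neither was above background. A match is a description of letters and not of a bound site, and a window without these letters says nothing of the factor.

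The stretches shown come from Hmgcs1, which holds the SRE, and from the sterol genes above background with the 3 lowest and the 3 highest differences among those with an NF-Y box upstream of the start site. Each is written 5′ to 3′ on the gene's strand, ends before the start site, and has the SRE and every NF-Y box in capitals (CCAAT, or ATTGG where it lies on the other strand). The first is chr13:119690104-119690320 (+ strand), which holds the SRE TCACCCCAC among 3 NF-Y boxes.
Hmgcs1: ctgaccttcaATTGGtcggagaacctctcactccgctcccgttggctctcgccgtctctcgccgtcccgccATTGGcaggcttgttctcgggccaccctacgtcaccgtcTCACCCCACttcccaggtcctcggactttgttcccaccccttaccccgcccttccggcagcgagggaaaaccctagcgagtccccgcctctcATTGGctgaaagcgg
The lower genes were Srebf2 (chr15:82147124-82147148, + strand), Pmvk (chr3:89454395-89454419, + strand) and Msmo1 (chr8:64733619-64733748, - strand), with log2 differences of -1.36, -0.97 and -0.82.
Srebf2: tcgcgcgccgATTGGctaatgcaag
Pmvk: ctcaggttggCCAATtcacagcatc
Msmo1: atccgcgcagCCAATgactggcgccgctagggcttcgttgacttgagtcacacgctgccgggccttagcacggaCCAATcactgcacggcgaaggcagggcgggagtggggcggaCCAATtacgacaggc
The higher genes were Lss (chr10:76531533-76531557, + strand), Nsdhl (chrX:72918402-72918515, + strand) and Ggps1 (chr13:14063529-14063699, - strand), with log2 differences of 0.10, 0.27 and 0.45.
Lss: tgatgctctgATTGGccgagctcgc
Nsdhl: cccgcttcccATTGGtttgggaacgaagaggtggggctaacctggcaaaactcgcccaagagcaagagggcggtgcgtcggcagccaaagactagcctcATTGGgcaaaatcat
Ggps1: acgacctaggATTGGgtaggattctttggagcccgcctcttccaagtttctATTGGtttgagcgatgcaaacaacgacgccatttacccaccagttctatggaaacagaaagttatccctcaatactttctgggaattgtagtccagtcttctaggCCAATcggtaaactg
Msmo1 and Ggps1, whose signals differed in opposite directions, each carried 3 boxes.

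Genes for the steps from acetyl-CoA to the isoprenoid diphosphates were mostly lower in the knockdown line. Of 7 measured, 5 were lower and 2 higher, beside 49.0% of all 19505 genes lower, and the median log2 difference was -0.61. Hmgcs1, which makes HMG-CoA in the cytosol, read 9.52 (shEmpty) and 9.35 (shPDLIM2) as log2 signals, a difference of -0.17 that is smaller than the spread of 1 probe set. Mvk, the mevalonate kinase, had signals of 4.41 and 4.84, and neither was above background. The steps that follow stood lower by more. Pmvk, which adds the next phosphate, had signals of 6.81 and 5.84, or 1.96-fold lower. Mvd, which decarboxylates the product to isopentenyl diphosphate, had 6.53 and 5.91, or 1.54-fold lower. Idi1, the isomerase of isopentenyl diphosphate, had 6.45 and 5.84, or 1.53-fold lower. Its related neighbour Idi2 was not above background on either array (3.55 and 3.29). The shPDLIM2 signals of Pmvk, Mvd and Idi1 lay close to the background level of that array (5.26), which limits their folds.

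At the branch point the genes differed in direction. Fdps, the farnesyl diphosphate synthase, had signals of 6.74 and 5.74, or 2.00-fold lower in the knockdown. Its log2 difference fell short of 2-fold with quantile-normalized arrays (-0.96) and without the lowess trend (-0.95). The shPDLIM2 signal of Fdps also lay close to the background level of 5.26. Ggps1, which extends farnesyl diphosphate to the geranylgeranyl form used to anchor small GTPases, had 10.13 and 10.58, or 1.37-fold higher. The log2 difference of Fdps minus that of Ggps1 was thus -1.45, and it ran from -1.45 to -1.47 over the scalings of the arrays that were tried.

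Of the 3 genes from farnesyl diphosphate to lanosterol, the first was the lowest of the whole set and the other two were not lower. Fdft1, the squalene synthase that commits farnesyl diphosphate to sterols, read 9.05 (shEmpty) and 7.57 (shPDLIM2) as log2 signals, or 2.79-fold lower. Sqle, the squalene epoxidase and a rate-limiting oxygenase, had 8.24 and 8.83, or 1.51-fold higher. Lss, which closes the ring system to lanosterol, had 8.18 and 8.28, a difference of 0.10. The log2 difference of Fdft1 minus that of Sqle, its next enzyme, was thus -2.07, a 4.20-fold unequal change between the arrays, and it ran from -2.07 to -2.08 over the scalings tried.

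The late steps from lanosterol to cholesterol had a median log2 difference of -0.47 over 8 measured genes, 6 lower and 2 higher, and none reached 2-fold. Among all genes above background on at least 1 array, 54.9% were lower. Dhcr7 was above background on the shEmpty array alone. Over the 7 genes above background on both arrays the median was -0.38. Cyp51, the lanosterol demethylase, had signals of 8.13 and 8.14, a difference of 0.01 that became 0.00 after centring on the median. Msmo1, the methylsterol monooxygenase that follows in the removal of the C4 methyl groups, had 7.38 and 6.56, or 1.77-fold lower. Nsdhl and Hsd17b7, the dehydrogenase and the ketoreductase of the same C4 demethylation, lay on opposite sides of 0. Nsdhl had signals of 7.32 and 7.59, or 1.21-fold higher. Hsd17b7 had 7.92 and 7.37, or 1.46-fold lower. Lbr, a nuclear envelope protein that binds lamin B and also reduces the sterol C14 double bond, had 12.00 and 11.28, or 1.65-fold lower.

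The last reactions were lower by less or were near background. Sc5d, the lathosterol oxidase, had signals of 10.89 and 10.51, or 1.30-fold lower. Ebp, the sterol isomerase, had 5.98 and 5.76, a difference of -0.22. Dhcr7, which completes cholesterol on one branch, had 5.47 in shEmpty cells and 4.92 in shPDLIM2 cells, where it was not above background. Set against the background level, Dhcr7 was at least 1.16-fold lower.

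**Figure D2:**
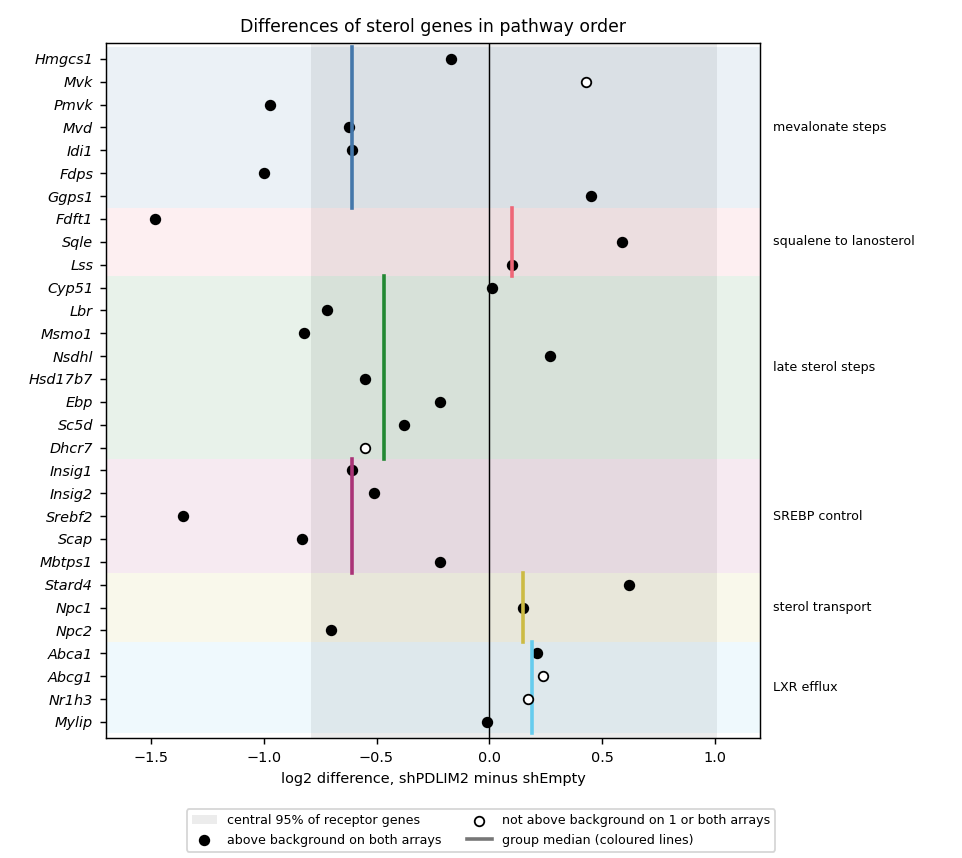
Log2 difference (shPDLIM2 minus shEmpty) of each measured sterol gene in pathway order, with a coloured line at each group's median and a grey band over the central 95% of the receptor genes (-0.79 to 1.01). Open points were not above background on 1 or both arrays. Over all measured genes, the medians of the mevalonate, late sterol and SREBP control groups lie at -0.61, -0.47 and -0.61. Those of the squalene, transport and efflux groups lie between 0.10 and 0.19.

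All 5 measured genes of SREBP control were lower in the knockdown line (median log2 difference -0.61), and all were above background on both arrays. For comparison, 54.9% of all genes above background on at least 1 array were lower. Srebf2, which encodes SREBP-2, read 12.68 (shEmpty) and 11.32 (shPDLIM2) as log2 signals, or 2.57-fold lower. Only 0.751% of the genes above background had a difference as low or lower. Scap, its escort and sterol sensor, had 8.79 and 7.96, or 1.78-fold lower. The log2 difference of Scap minus that of Srebf2 was thus 0.53.

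The genes for proteins that retain and cleave the complex were lower by less. Insig1, itself a target of SREBP, had signals of 8.53 and 7.92, or 1.53-fold lower. Insig2, the related retention protein, had 9.77 and 9.26, or 1.42-fold lower. The differences of both Insig genes were 0.10 apart on the log2 scale, within the spread of 1 probe set. Mbtps1, the first protease, had 11.79 and 11.57, a difference of -0.22 that 37.7% of the genes above background matched or went below.

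Genes of intracellular sterol transport went both ways, with 2 higher and 1 lower and a median of 0.15. Stard4, a soluble carrier of cholesterol whose gene is a known SREBP-2 target, had log2 signals of 6.97 and 7.59, or 1.54-fold higher in the knockdown. Its difference was the highest of the 30, and that of Srebf2 minus that of Stard4 was -1.98 on the log2 scale. Npc1 and Npc2 hand cholesterol out of the lysosome together, Npc2 in the lumen and Npc1 in the membrane. Npc1 had signals of 8.47 and 8.62, or 1.11-fold higher. Npc2 had 9.78 and 9.08, or 1.62-fold lower, and so was 0.85 below Npc1 in its difference.

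The LXR and efflux genes gave little signal. Nr1h3, which encodes LXR alpha, had 4.31 and 4.48, and Abcg1, which passes cholesterol to HDL, had 4.46 and 4.70. Neither gene was above background on either array, so no fold is given. Abca1, which passes cholesterol to lipid-poor apolipoprotein A-I, was just above background, with 5.33 in shEmpty and 5.54 in shPDLIM2 cells, or 0.21 apart. Mylip, an LXR target and ubiquitin ligase that marks lipoprotein receptors for degradation, had 7.07 and 7.06. Its difference of -0.01 became 0.09 with quantile-normalized arrays and 0.07 with the lowess trend taken out.

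**Figure D3:**
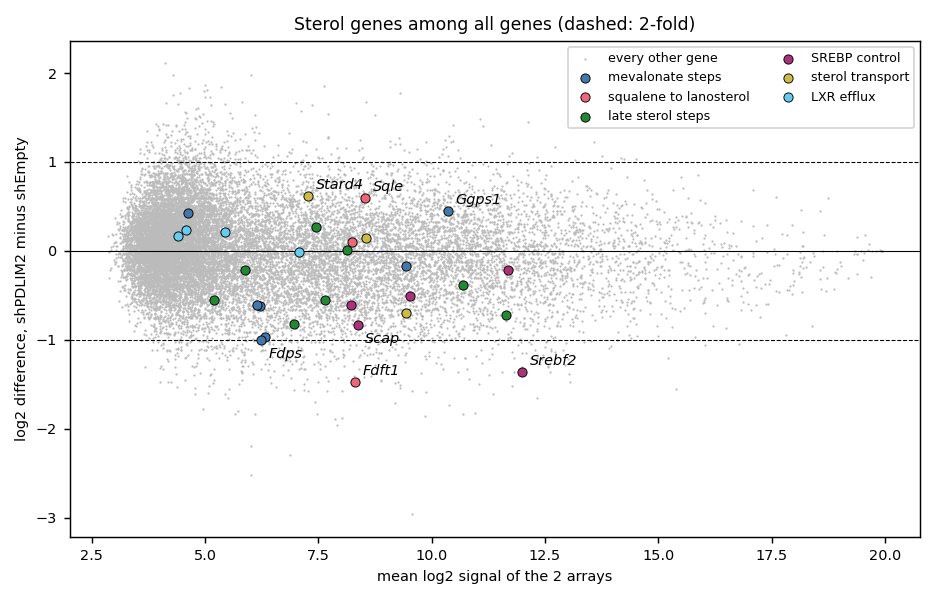
Log2 difference (shPDLIM2 minus shEmpty) against the mean log2 signal of the 2 arrays, with every gene in grey and the 30 sterol genes coloured by group. Dashed lines mark 2-fold. Fdft1 and Srebf2 lie below the lower line, Fdps lies on it, and the sterol genes spread over mean signals from under 5 to about 12.

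The spread of all genes differed with signal, and the lowest sterol genes were read against genes of their own range. Among genes above background, 3.44% were at least 2-fold lower at mean log2 signals from 5 to 7, where Fdps lies, and 3.30% from 7 to 9, where Fdft1 lies. Above 11, where Srebf2 lies, 2.83% were. The medians of these ranges were -0.03, -0.10 and -0.08. From 9 to 11 the share was 2.42% and the median -0.06. The sterol genes with mean signals from 5 to 7 had a median of -0.62 over 8 genes, and those from 7 to 9 had a median of 0.01 over 11 genes. That range holds Sqle, Lss, Cyp51, Stard4, Npc1, Nsdhl and Mylip as well as Fdft1, Scap, Insig1 and Hsd17b7. From 9 to 11 the sterol median was -0.38 over 5 genes, and above 11 it was -0.72 over 3 genes. A difference of the sterol genes between these ranges was not tested.

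Lists that neighbour the pathway were described in the same way. Enzymes that use isoprenoid diphosphates for other products, or that act on those products, had a median log2 difference of 0.11. Of 12 measured, 8 were higher, beside 50.0% of all 19505 genes. Pggt1b, the beta subunit of GGTase I, which attaches geranylgeranyl groups to proteins, had signals of 8.91 and 9.85, or 1.92-fold higher. Pdss2, which helps build the side chain of coenzyme Q, was 1.52-fold higher and Dhdds, of dolichol synthesis, 1.38-fold higher. Fnta, the alpha subunit that farnesyltransferase and GGTase I share, was 1.57-fold lower. The subunits Fnta and Pggt1b of a single enzyme thus lay on opposite sides of 0.

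Sterol-sensing regulators and genes of degradation in the endoplasmic reticulum had a median of 0.22, with 8 of 12 higher, 3 lower and Spring1 equal. All 12 were above background, and 44.3% of all genes above background were higher. Erlin1, a scaffold of ER-associated degradation that binds cholesterol, had signals of 9.68 and 10.61, or 1.91-fold higher. The ubiquitin ligases Rnf139 and Syvn1 were 1.59-fold and 1.48-fold higher. Rnf145, a ubiquitin ligase of the same kind, had 10.69 and 9.75, or 1.92-fold lower. Ligases of the degradation machinery therefore differed in direction.

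Other sterol carriers had a median of -0.11 over 15 genes, 9 lower and 6 higher, and of -0.40 over the 10 above background on both arrays. Beside these counts, 49.0% of all 19505 genes were lower and 50.0% higher. Osbp, which moves cholesterol to the Golgi in exchange for a phosphoinositide, had signals of 9.29 and 8.51, or 1.72-fold lower. Its relatives Osbpl11 and Osbpl8 were 1.57-fold and 1.54-fold lower. Abcg4, an efflux transporter, was above background in the knockdown alone (4.27 and 5.30) and was at least 1.13-fold higher.

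Uptake and oxysterol genes showed smaller differences. Lipoprotein receptors and their chaperone had a median of -0.05 over 5 genes. Vldlr, a receptor for triglyceride-rich lipoproteins, was 1.46-fold higher and Scarb1, the HDL receptor, 1.41-fold lower, with Lrpap1 at -0.28 and Lrp8 at -0.05. Of 5 oxysterol and bile acid enzymes, with a median of 0.13, only Hsd3b7 was above background, with signals of 5.60 and 5.98. Among 5 further LXR targets 4 were higher, beside 50.0% of all 19505 genes, with a median of 0.33. Of the 5, only 4 were above background on at least 1 array. Smpdl3a was above background in the knockdown alone and at least 1.51-fold higher, and Plin2, a lipid droplet coat protein, was 1.41-fold higher. Lpcat3, a phospholipid acyltransferase, was at 0.33 and Lpl, the lipoprotein lipase, at 0.05.

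Genes of fatty acid synthesis that SREBP-1 is known to drive had 10 of 13 lower, beside 54.9% of all genes above background. Their median was -0.12, beside -0.47 for the 18 measured genes of cholesterol synthesis. At 1.5-fold, 3 of the 13 were lower and 1 higher, beside 14.5% and 9.80% of the genes above background. Elovl6, an elongase of saturated fatty acids, had signals of 8.63 and 7.47, or 2.23-fold lower. Scd1, the stearoyl-CoA desaturase, had 13.03 and 12.00, or 2.04-fold lower. Fasn, the fatty acid synthase, was 1.64-fold lower and Gpam, which starts glycerolipid synthesis, 1.53-fold higher. A difference between the fatty acid and the cholesterol genes was not tested.

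**Figure D4:**
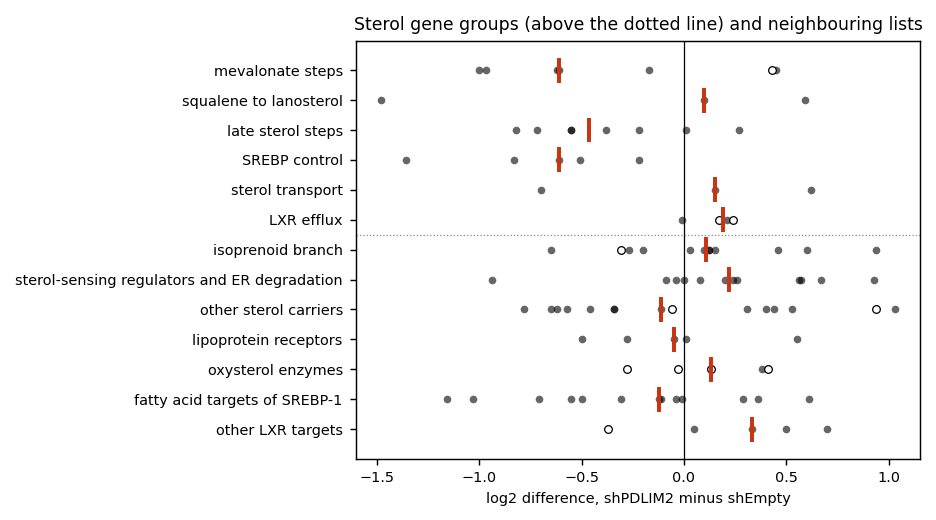
Log2 difference (shPDLIM2 minus shEmpty) of every measured gene in the 6 sterol groups, above the dotted line, and in the neighbouring lists below it, with a red line at each list's median. Open points were not above background on either array. The SREBP control group is the one of the sterol groups with every gene below 0, and the isoprenoid, degradation and LXR target lists have medians of 0.11, 0.22 and 0.33.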

How the data were processed

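RNA of shEmpty and shPDLIM2 LLC cells was measured on Affymetrix Clariom S mouse arrays, 1 array per line. The authors deposited 1 log2 signal for each probe set of an array, made with RMA and the Transcriptome Analysis Console according to the submitters' processing notes. Versions, genome build and any normalization between arrays were not given in the sources used, and coordinates come from the RefSeq promoter table alone. Of 22206 probe sets, 19572 had 1 symbol and 2634 none, and probe sets of a gene were averaged, which left 19505 genes. Differences were shPDLIM2 minus shEmpty, without any test. Precision is limited by the number of arrays. Folds on genes above background on 1 array are bounds, the brighter signal over either the background level or the dimmer signal, whichever was higher. Where several RefSeq promoter windows existed, a gene counted if any held the motif.

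All 36 genes were named, with up to 4 of each neighbouring list by absolute difference among those above background. Members and lists were chosen with earlier results of these data known. Alternatives were median centring, quantile normalization, removal of a lowess trend (fraction 0.3), a filter on background, the 99th percentile as background, a 1.5-fold limit, and the brighter probe set of a gene. The scalings were tested on simulated data. Python 3.11.15, numpy 2.4.6, pandas 2.3.3, statsmodels 0.14.6 and matplotlib 3.10.9 were used.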

Additional observations from a re-analysis of the deposited data

How the results depend on the processing

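Of the 30 measured genes, 18 were lower and 10 higher on the deposited scale and after median centring, quantile normalization and lowess removal, and only Mylip and Cyp51 were not on one side of 0 throughout. Mylip went to 0.09 with quantile normalization and to 0.071 with the lowess trend removed, so that the number of lower LXR and efflux genes went from 1 to 0 under both. The number of genes past the fold was 3 lower and 0 higher at 2-fold, and 11 lower and 2 higher at 1.5-fold. It was 2 lower after quantile normalization or lowess removal, under which Fdps stood at -0.96 and -0.95. The median of the set ran from -0.26 to -0.31 over the scalings and was -0.51 over genes above background, or -0.38 with Dhcr7 at its bound. Over the scalings, the medians of the mevalonate group ran from -0.56 to -0.62, of the late sterol group from -0.39 to -0.48 and of the SREBP control group from -0.51 to -0.62. The other values over sets, 75, moved by less than the 0.35 spread of 1 probe set or, for counts, by at most 1.5 times, as did 121 single-gene values. Part of these values could not move. Each of the 30 genes had 1 probe set, so the brighter probe set was the same one. Median centring shifted every difference by 0.01 alone, and the background filter removed no gene from the squalene, late sterol, SREBP control and transport groups. No paired analysis was possible because each line had 1 array. Nothing could be left out for the same reason, and differences near 0.35 or in genes near background are limited most. The 0.35 comes from probe sets on the same 2 arrays. Larger differences therefore also lack a measure of variation between cultures.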
